A study of Mus musculus with 12 samples.

Results

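The semaphorin, plexin and ephrin guidance genes comprise the axon guidance ligands of the semaphorin and ephrin families and their plexin, neuropilin and Eph receptors. They were taken by gene symbol: probe sets whose single symbol is Sema, Epha, Ephb, Efna or Efnb with a number, a plexin of type a, b, c or d, Nrp1 or Nrp2. This gave 53 genes of the 18193 that the arrays measure with a single symbol, with 124 of 45037 probe sets, and each gene is described by its probe set with the highest mean over the 12 arrays. Of the 53 genes, 28 encode ligands (20 semaphorins and 8 ephrins) and 24 encode receptors (9 plexins, 2 neuropilins, 9 EphA and 4 EphB receptors). The remaining member, Plxna4os1, shares the letters of Plxna4 but is an opposite-strand RNA gene and no receptor. Affymetrix expression arrays were hybridised with RNA from dissected prefrontal cortex and hippocampus of adult female mice, 38 to 40 weeks old. There were 2 genotypes, with 3 arrays for each tissue of a genotype. The labels do not say whether same-numbered arrays of the 2 tissues came from one mouse. The background strain was C57BL/6, reached by 6 generations of back-crossing. APLP2-KO mice (APLP2-/-) lack APLP2, which belongs to the same protein family as APP (amyloid precursor protein), and keep App. APPsα-DM mice (APPα/αAPLP2-/-) also lack APLP2, and both App alleles encode only APPsα, the ectodomain that α-secretase releases. Both genotypes therefore lack APLP2, and wild-type mice were not analysed here. Each genotype and tissue makes a group of 3 arrays, 4 groups in all. Values are log2 signals, so a difference of 1 is a 2-fold change, and p-values measure the spread between these arrays.

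Semaphorins are secreted, membrane-spanning or membrane-linked proteins that steer growth cones, mostly by repulsion. Secreted class 3 semaphorins bind neuropilins, which pair with A plexins to signal, whereas Sema3E can bind plexin D1 directly. Ephrins stay on the cell surface and signal in both directions when they meet Eph receptor tyrosine kinases on a neighbouring cell. A ephrins are anchored by a lipid and mainly bind EphA receptors, and B ephrins span the membrane and mainly bind EphB receptors. In the adult forebrain both systems remain expressed and act on dendritic spines and synapses.

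The arrays were alike in overall signal: their medians lay between 5.86 and 5.91, and arrays of a group correlated at 0.9947 or more. App, the edited gene, read 13.38 to 13.50 in the APLP2-KO arrays and 11.46 to 11.83 in the APPsα-DM arrays, so its signal separated the arrays by their labelled genotype. Where its probe set lies in the edited transcript was not looked up. The dissections were checked with marker lists. Of 10 hippocampal pyramidal cell markers, 9 were called higher in hippocampus in both genotypes, and their mean was 7.81 to 7.99 in the cortex arrays and 9.42 to 9.58 in the hippocampus arrays. Of 9 dentate granule cell markers, 7 were called higher in both. Of 12 cortical layer markers, 7 were called lower and 2 higher in both. All 12 striatal neuron markers were lower in hippocampus in both genotypes, with a mean of 8.80 to 9.44 in the cortex arrays against 6.86 to 7.23. Among them Ppp1r1b, which marks striatal projection neurons, averaged 10.55 in APLP2-KO cortex and 8.01 in hippocampus. Choroid plexus markers differed between arrays of a group, and were high in APLP2-KO cortex 3 (mean 7.26) and APPsα-DM cortex 2 (7.77) against 4.84 to 5.04 in the other cortex arrays. In the hippocampus arrays they averaged 5.63, 6.47 and 7.70 in APLP2-KO and 8.85, 5.85 and 8.43 in APPsα-DM, and all 11 markers lay above 0 in both tissue comparisons, though none passed the test. Leptomeningeal and fibroblast markers averaged 7.01 to 7.36 in cortex, 7.37 to 7.81 in APLP2-KO hippocampus and 7.24 to 8.88 in APPsα-DM hippocampus. Of 13 endothelial and pericyte markers, 4 were called lower in hippocampus in APLP2-KO and 0 in APPsα-DM, with median differences of -0.27 and -0.10. Apart from leaving out arrays high in choroid plexus markers, the part of these cell types in the results that follow was not tested. In such pieces, fewer cells of a type and less RNA per cell cannot be told apart.

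Of the 53 guidance genes, 24 differed between hippocampus and cortex in APLP2-KO (45.3%), 12 higher and 12 lower in hippocampus, at a limma p-value under 0.05 after Benjamini-Hochberg adjustment over all probe sets. The background was 16.5% of the 18193 genes, 6.78% higher and 9.70% lower, and 12.6% of all probe sets. In APPsα-DM, 23 members differed (43.4%), 15 higher and 8 lower, against 13.9% of all genes, 6.59% higher and 7.34% lower, and 10.6% of all probe sets. The same direction was called in both genotypes for 20 members (37.7%), 12 higher and 8 lower in hippocampus, against 11.4% of all genes, 5.06% higher and 6.30% lower. The hippocampus and cortex arrays did not overlap for 34 members (64.2%) in each genotype, against 36.6% of all genes in APLP2-KO and 32.7% in APPsα-DM. The 2 tissue comparisons use different mice and share the estimate of the spread. The share called was larger among bright genes: 44 members had a mean above 6, and among genes above 6 the background called was 22.5% in APLP2-KO and 18.5% in APPsα-DM, against 52.3% of those members in each. Differences above 1 in both genotypes were found for 7 members (13.2%), against 1.68% of all genes: Epha6, Nrp1, Nrp2 and Epha7 were higher in hippocampus, and Sema3a, Efna5 and Plxnd1 were lower. Without the 2 cortex arrays high in choroid plexus markers, 21 members were called in APLP2-KO and 19 in APPsα-DM. Without all 5 arrays of either tissue in which these markers averaged above 7, the counts were 18 (11 higher, 7 lower) and 16 (12 higher, 4 lower). That leaves 7 arrays and a single APPsα-DM hippocampus array, which is assumed to vary like the other groups. The share of all genes called was not counted with arrays left out. No member was called in opposite directions (background 0%), 26 were called in neither genotype and 49 of 53 had the same sign in both. Across the 53 members the differences of the 2 genotypes correlated at r = 0.976, and across all 18193 genes at r = 0.905; genes are not independent replicates, and this is a description.

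**Figure D1:**
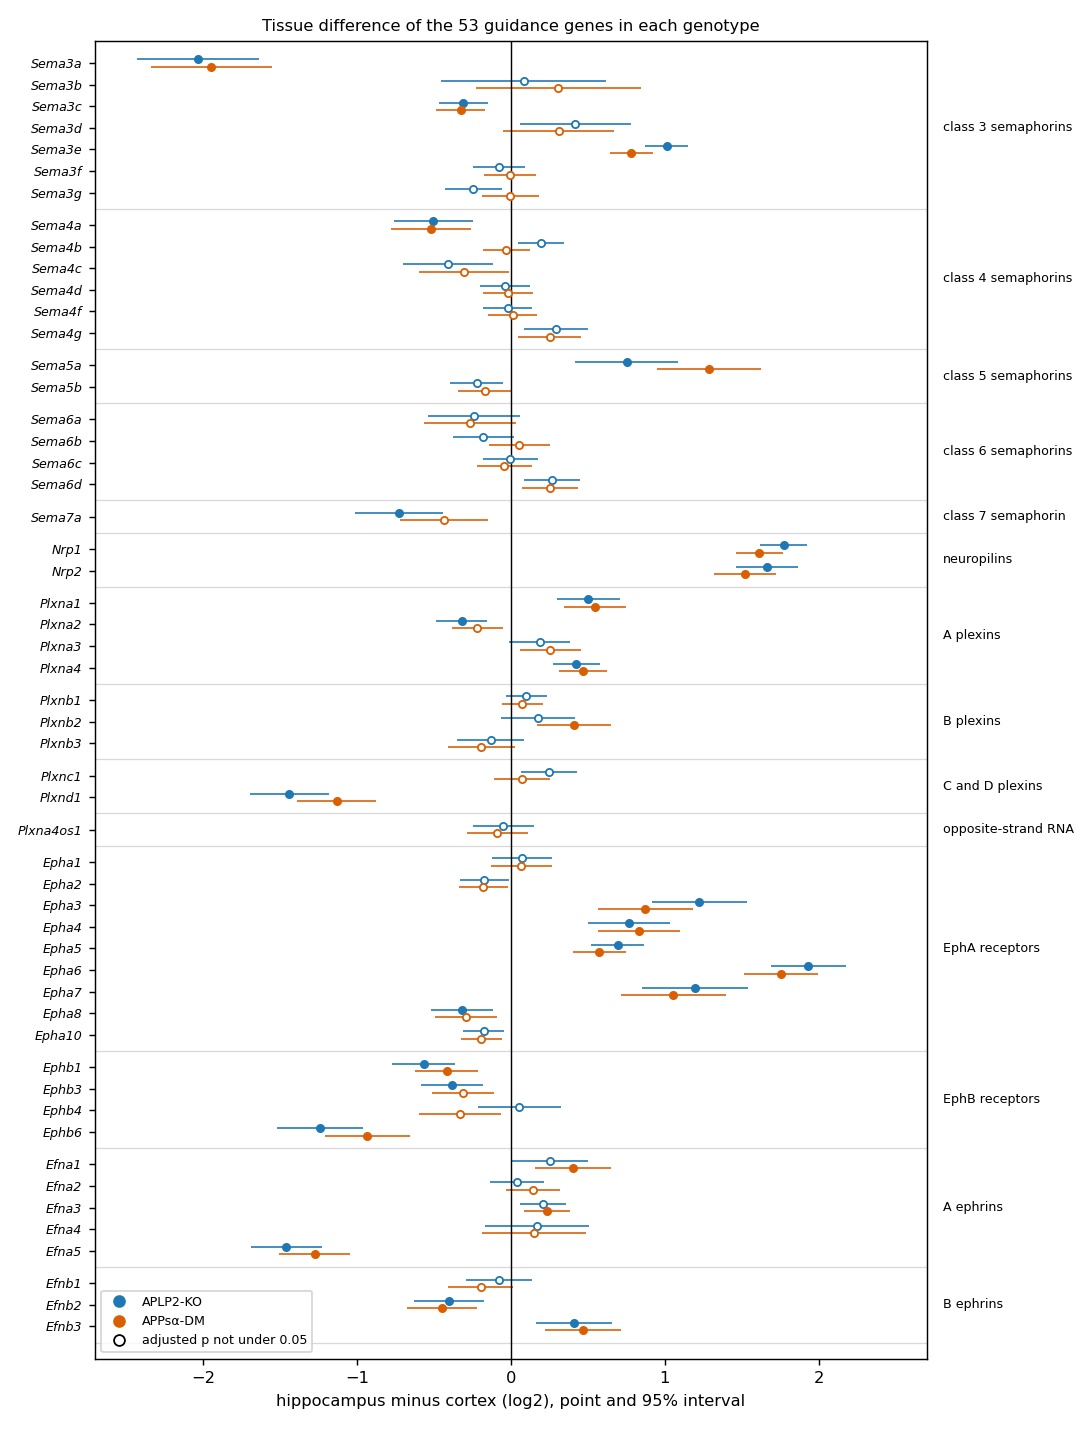
Difference in log2 signal, hippocampus minus cortex, of each of the 53 guidance genes in APLP2-KO (blue) and APPsα-DM (orange), with 95% intervals from limma (3 arrays a group) and open points where the adjusted p is not under 0.05. Points run from -2.03 for Sema3a to 1.93 for Epha6 in APLP2-KO, and the points of the 2 genotypes lie close together.

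Calls were also counted by role. Among the 24 receptors, 9 were called higher in hippocampus and 3 lower in both genotypes, and among the 28 ligands 3 were called higher and 5 lower. That is 50% of the receptors and 28.6% of the ligands, against 11.4% of all genes (5.06% higher and 6.30% lower). The 9 receptors called higher were both neuropilins, the A plexins Plxna1 and Plxna4, and the EphA receptors Epha3, Epha4, Epha5, Epha6 and Epha7. The 5 ligands called lower were Sema3a, Sema3c, Sema4a, Efna5 and Efnb2. The split between receptors and ligands was noticed in these values and has no test of its own.

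For the 2 neuropilins and for the ligands with the largest falls, Sema3a and Efna5, the 250 bases before the transcription start are shown, because these members carry the largest ligand and co-receptor differences of the set. They were chosen with their values known. The sequences are RefSeq's on build GRCm38.p6, printed 5′ to 3′ on the gene's strand: Nrp1 at chr8:128358823-128359072 on the plus strand, Nrp2 at chr1:62703067-62703316 on the plus strand, Sema3a at chr5:13396534-13396783 on the plus strand and Efna5 at chr17:62881318-62881567 on the minus strand. Capitals mark the GC box GGGCGG on either strand.
Nrp1: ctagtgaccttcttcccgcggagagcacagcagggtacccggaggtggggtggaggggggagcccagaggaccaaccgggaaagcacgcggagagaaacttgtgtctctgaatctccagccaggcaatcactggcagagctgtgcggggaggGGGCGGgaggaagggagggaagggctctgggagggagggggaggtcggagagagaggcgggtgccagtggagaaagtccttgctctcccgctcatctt
Nrp2: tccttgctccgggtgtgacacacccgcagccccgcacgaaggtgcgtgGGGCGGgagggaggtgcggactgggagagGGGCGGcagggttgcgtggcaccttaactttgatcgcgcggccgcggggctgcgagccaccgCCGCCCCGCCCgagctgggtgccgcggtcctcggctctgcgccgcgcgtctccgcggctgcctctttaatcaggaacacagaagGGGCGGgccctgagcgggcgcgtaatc
Sema3a: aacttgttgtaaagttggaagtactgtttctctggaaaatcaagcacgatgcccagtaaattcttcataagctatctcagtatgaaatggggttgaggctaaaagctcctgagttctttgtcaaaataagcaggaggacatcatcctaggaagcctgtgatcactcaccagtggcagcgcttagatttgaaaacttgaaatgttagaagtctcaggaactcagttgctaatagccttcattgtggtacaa
Efna5: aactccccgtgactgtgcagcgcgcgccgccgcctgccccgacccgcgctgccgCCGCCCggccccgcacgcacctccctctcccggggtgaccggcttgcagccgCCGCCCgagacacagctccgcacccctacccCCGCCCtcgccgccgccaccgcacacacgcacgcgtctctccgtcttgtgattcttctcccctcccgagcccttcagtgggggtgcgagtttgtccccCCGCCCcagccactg
The Nrp1 window held 1 GC box, the Nrp2 window 5, of which 2 overlap, and the Efna5 window 4. Besides the GC box, 3 motifs were searched on both strands: the TATA box TATAAA, the cAMP response element TGACGTCA and CAGATG, the E-box bound by neuronal helix-loop-helix factors. The Sema3a window held none of the 4 motifs, and its GC content was 40.8%, against 64.4% for Nrp1, 72.4% for Nrp2 and 74.8% for Efna5. A promoter entry was found for 46 of the 53 members, 60 promoters in all. GGGCGG was in 76.7% of these and in 32.7% of all 32851 promoters of the same length. TATAAA was in 1.7% of the members' promoters against 12.4%, CAGATG in 8.3% against 14.4%, and TGACGTCA in 1.7% against 1.5%. The median GC content was 64.2% in the members' promoters and 52.4% in all. These matches describe letters in a window. The GC box was present in the windows of Nrp1 and Nrp2, higher in hippocampus, and in that of Efna5, lower in hippocampus.

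Among the 7 secreted class 3 semaphorins, 1 was called higher and 2 lower in hippocampus in both genotypes. Sema3a, the prototype repellent that binds neuropilin 1, had the largest difference of all members. Its signal was 8.68, 8.52 and 8.50 in APLP2-KO cortex against 6.65, 6.68 and 6.27 in APLP2-KO hippocampus. The APPsα-DM arrays gave 8.51, 8.80 and 8.79 in cortex and 7.09, 6.90 and 6.27 in hippocampus. Every hippocampus array lay below every cortex array. The difference, hippocampus minus cortex, was -2.03 ± 0.18 (SE; 4.09-fold lower, limma adjusted p = 1.1e-05) in APLP2-KO and -1.95 ± 0.18 (3.85-fold, limma adjusted p = 1.79e-05) in APPsα-DM. Its promoter, shown above, was the one of the 4 without a GC box. Sema3e, the ligand of plexin D1, went the other way. Sema3e read 8.31, 8.24 and 8.22 in the 3 APLP2-KO cortex arrays and 9.19, 9.26 and 9.36 in APLP2-KO hippocampus. In APPsα-DM it read 8.53, 8.49 and 8.52 in cortex and 9.26, 9.35 and 9.27 in hippocampus. The hippocampus arrays were all above the cortex arrays. Hippocampus was 2.02-fold higher in APLP2-KO (1.01 ± 0.065, limma adjusted p = 7.3e-07) and 1.72-fold higher in APPsα-DM (0.78 ± 0.065, limma adjusted p = 6.82e-06). Sema3c, a class 3 semaphorin with roles in vascular and cortical development, differed least of those called. APLP2-KO cortex gave 8.14, 8.17 and 8.11 for Sema3c, and APLP2-KO hippocampus 7.80, 7.88 and 7.82. APPsα-DM cortex gave 8.16, 8.17 and 8.42, and APPsα-DM hippocampus 7.93, 7.95 and 7.89. That is a difference of -0.31 ± 0.074 in APLP2-KO (limma adjusted p = 0.0146) and of -0.33 ± 0.074 in APPsα-DM (limma adjusted p = 0.0124), or 1.24-fold and 1.25-fold lower. The arrays of the 2 tissues did not overlap, but the call in APLP2-KO ended without APLP2-KO cortex 2 (0.0545) and that in APPsα-DM without APPsα-DM hippocampus 3 (0.0546), the adjusted p standing in brackets. The mean of its 2 probe sets gave -0.15 in APLP2-KO (limma adjusted p = 0.261). Sema3a and Sema3d are next to each other on chromosome 5, and Sema3e is 3 protein-coding genes from Sema3a. Sema3d differed by 0.42 and 0.31 without passing the test, while Sema3a and Sema3e were called in opposite directions. Sema3b, Sema3f and Sema3g were not called with the probe set of highest mean.

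Of the membrane-bound semaphorins, Sema5a was higher in hippocampus and Sema4a lower in both genotypes. Sema5a spans the membrane and carries thrombospondin repeats. Its signal was 8.64, 8.61 and 8.68 in APLP2-KO cortex against 9.06, 9.45 and 9.68 in APLP2-KO hippocampus. The APPsα-DM arrays gave 8.25, 8.43 and 8.62 in cortex and 9.45, 9.78 and 9.93 in hippocampus. All hippocampus arrays were above all cortex arrays, and the highest values were those of APPsα-DM hippocampus 2 and 3. The difference, hippocampus minus cortex, was 0.75 ± 0.15 (SE; 1.68-fold higher, limma adjusted p = 0.00597) in APLP2-KO and 1.28 ± 0.15 (2.44-fold, limma adjusted p = 0.000141) in APPsα-DM. The APLP2-KO call ended without the 5 arrays high in choroid plexus markers (0.63, limma adjusted p = 0.0686). Of its 3 other probe sets, 2 were called higher in both genotypes, and the third, with a mean of 3.38, gave 0.037 and 0.11. Sema4a, a class 4 transmembrane semaphorin, was one of 6 of its class and the only one called. APLP2-KO cortex gave 8.58, 8.51 and 8.62 for Sema4a, and APLP2-KO hippocampus 8.21, 8.20 and 7.80. APPsα-DM cortex gave 8.54, 8.59 and 8.63, and APPsα-DM hippocampus 7.83, 8.17 and 8.20. The tissues did not overlap, and APLP2-KO hippocampus 3 and APPsα-DM hippocampus 1 were the lowest. Hippocampus was 1.42-fold lower in APLP2-KO (-0.50 ± 0.12, limma adjusted p = 0.0138) and 1.43-fold lower in APPsα-DM (-0.52 ± 0.12, limma adjusted p = 0.0131). The APLP2-KO call ended without APLP2-KO hippocampus 3 (0.0502) and the APPsα-DM call without APPsα-DM hippocampus 1 (0.0517). It also ended in both genotypes without the 2 cortex arrays high in choroid plexus markers (limma adjusted p = 0.0644 and 0.059), while its other probe set gave -0.59 and -0.62 (limma adjusted p = 0.000559 and 0.000455). No class 6 semaphorin was called in either genotype. Sema6d, a transmembrane ligand of plexin A1, differed by 0.27 and 0.26 (limma adjusted p = 0.058 and 0.0763). Sema7a, the lipid-anchored semaphorin that binds plexin C1 and integrins, read 10.56, 10.46 and 10.36 in APLP2-KO cortex and 9.65, 9.65 and 9.91 in hippocampus. In APPsα-DM it read 10.35, 10.39 and 10.19 and 9.62, 10.21 and 9.80, and APPsα-DM hippocampus 2 overlapped the cortex arrays. It was called in APLP2-KO (-0.72 ± 0.13, limma adjusted p = 0.00252) and just missed the threshold in APPsα-DM (-0.43, adjusted p = 0.055). Without APPsα-DM hippocampus 2 the latter was -0.60 (limma adjusted p = 0.00406).

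**Figure D2:**
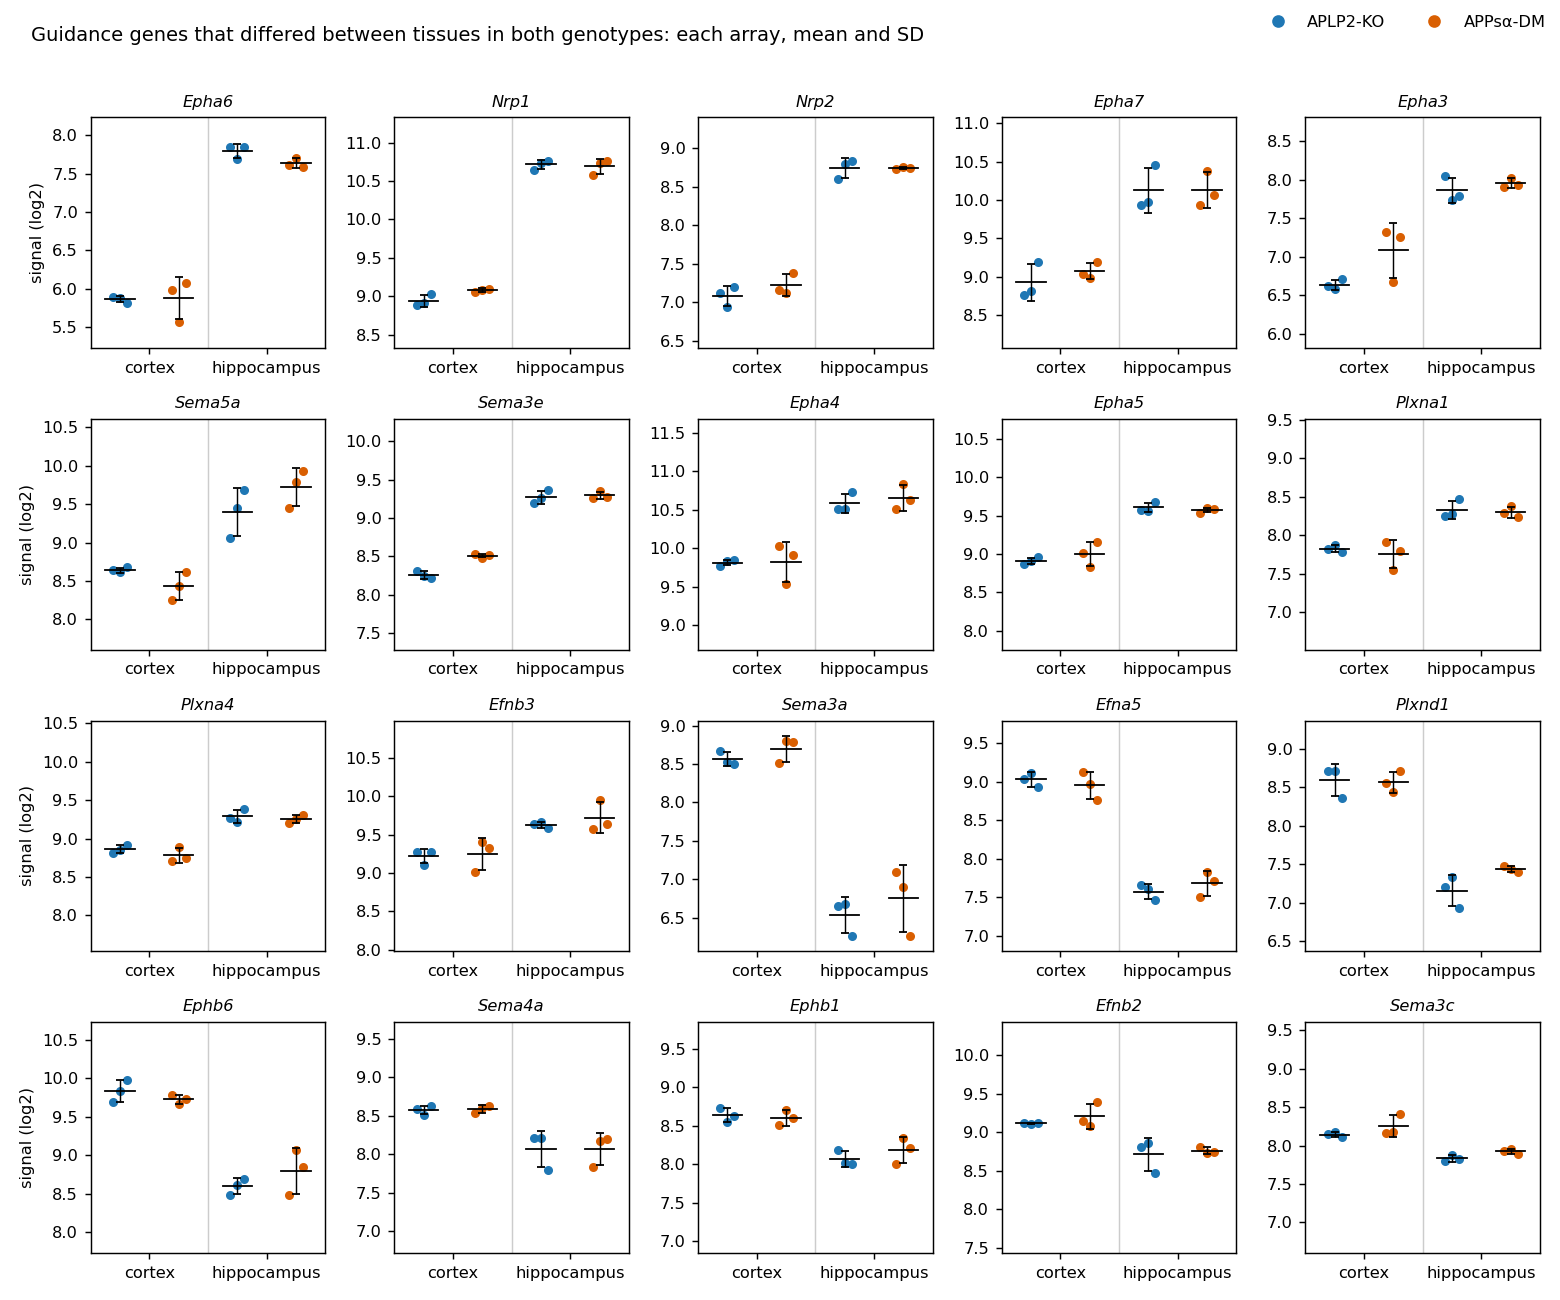
Log2 signal of the 20 guidance genes called in the same direction in both genotypes, one panel a gene, with 3 points a group (blue APLP2-KO, orange APPsα-DM), the group mean as a bar and its SD as a whisker; every panel spans 3 log2 units. The first 12 panels are higher in hippocampus, from Epha6 to Efnb3, the last 8 are lower, and in each panel the hippocampus arrays of a genotype do not overlap its cortex arrays.

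Both neuropilins, the binding subunits for class 3 semaphorins, were higher in hippocampus. Nrp1 read 8.89, 8.91 and 9.03 in the 3 APLP2-KO cortex arrays and 10.65, 10.74 and 10.76 in APLP2-KO hippocampus. In APPsα-DM it read 9.06, 9.08 and 9.10 in cortex and 10.58, 10.74 and 10.75 in hippocampus. No array of one tissue came within 1 unit of the other tissue. The difference, hippocampus minus cortex, was 1.77 ± 0.070 (SE; 3.41-fold higher, limma adjusted p = 2.56e-08) in APLP2-KO and 1.61 ± 0.070 (3.06-fold, limma adjusted p = 5.81e-08) in APPsα-DM. APLP2-KO cortex gave 7.12, 6.93 and 7.19 for Nrp2, and APLP2-KO hippocampus 8.60, 8.80 and 8.83. APPsα-DM cortex gave 7.16, 7.12 and 7.38, and APPsα-DM hippocampus 8.73, 8.76 and 8.74. Again the tissues did not overlap. Hippocampus was 3.16-fold higher in APLP2-KO (1.66 ± 0.093, limma adjusted p = 2.71e-07) and 2.87-fold higher in APPsα-DM (1.52 ± 0.093, limma adjusted p = 5.93e-07). All 3 further probe sets of Nrp1 and all 3 of Nrp2 were also called higher in hippocampus in both genotypes. The A plexins, the signalling partners of the neuropilins, split by gene. Plxna1 read 7.82, 7.88 and 7.78 in APLP2-KO cortex and 8.25, 8.27 and 8.47 in hippocampus, and 7.91, 7.55 and 7.79 and 8.29, 8.37 and 8.24 in APPsα-DM. That is a difference of 0.50 ± 0.093 in APLP2-KO (limma adjusted p = 0.00301) and of 0.55 ± 0.093 in APPsα-DM (limma adjusted p = 0.00199), or 1.42-fold and 1.46-fold higher. Plxna4 read 8.82, 8.85 and 8.92 against 9.27, 9.22 and 9.38 in APLP2-KO and 8.71, 8.89 and 8.74 against 9.20, 9.26 and 9.30 in APPsα-DM. Hippocampus was 1.34-fold higher in APLP2-KO (0.43 ± 0.071, limma adjusted p = 0.00148) and 1.38-fold higher in APPsα-DM (0.47 ± 0.071, limma adjusted p = 0.000877). Plxna2 pointed the other way, -0.32 and -0.22, and passed the test in APLP2-KO (limma adjusted p = 0.0147) but not in APPsα-DM (0.0947). Plxna3 had differences of 0.19 and 0.26 that did not pass. Averaging the 2 probe sets of Plxna1 gave 0.33 in APPsα-DM (limma adjusted p = 0.0638).

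Plxnd1, the receptor of Sema3E, was the only plexin called lower in hippocampus in both genotypes by the probe set of highest mean. Its signal was 8.71, 8.71 and 8.35 in APLP2-KO cortex against 7.20, 7.33 and 6.93 in APLP2-KO hippocampus. The APPsα-DM arrays gave 8.56, 8.44 and 8.71 in cortex and 7.47, 7.43 and 7.40 in hippocampus. The highest hippocampus array was below the lowest cortex array in each genotype. The difference, hippocampus minus cortex, was -1.44 ± 0.12 (SE; 2.71-fold lower, limma adjusted p = 5.55e-06) in APLP2-KO and -1.13 ± 0.12 (2.19-fold, limma adjusted p = 4.63e-05) in APPsα-DM. Plxnd1 thus stood opposite to its ligand Sema3e, which was higher in hippocampus by 1.01 and 0.78. Plxnc1, the receptor of Sema7A, differed by 0.25 and 0.073 without passing (limma adjusted p = 0.0762 and 0.663). The B plexins, which bind class 4 semaphorins, were called in neither genotype except Plxnb2, which passed in APPsα-DM alone (0.41 ± 0.11, limma adjusted p = 0.031). Plxnb2 read 8.85, 8.36 and 8.54 in the APPsα-DM hippocampus arrays, in which choroid plexus markers averaged 8.85, 5.85 and 8.43, and both were lowest in array 2. Without the 5 arrays high in these markers the Plxnb2 difference was 0.23 (limma adjusted p = 0.35). Plxna4os1 read 3.92, 3.90 and 4.02 in APLP2-KO cortex and 3.81, 4.02 and 3.87 in hippocampus with differences of -0.049 and -0.088 that did not pass.

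Of the 9 EphA receptors, the 5 numbered 3 to 7 were called higher in hippocampus in both genotypes, and none was called lower in both. Epha6 had the largest rise of all members. Epha6 read 5.90, 5.88 and 5.82 in the 3 APLP2-KO cortex arrays and 7.85, 7.69 and 7.85 in APLP2-KO hippocampus. In APPsα-DM it read 5.98, 5.57 and 6.08 in cortex and 7.62, 7.70 and 7.58 in hippocampus. Hippocampus was 3.81-fold higher in APLP2-KO (1.93 ± 0.11, limma adjusted p = 3.23e-07) and 3.38-fold higher in APPsα-DM (1.76 ± 0.11, limma adjusted p = 7.86e-07). Epha7, another receptor of A ephrins, also came out over 2-fold higher. Its signal was 8.76, 8.82 and 9.20 in APLP2-KO cortex against 9.94, 9.98 and 10.46 in APLP2-KO hippocampus. The APPsα-DM arrays gave 9.04, 8.99 and 9.19 in cortex and 9.94, 10.38 and 10.07 in hippocampus. APLP2-KO cortex 3 was the highest cortex array, still below every hippocampus array. That is a difference of 1.20 ± 0.16 in APLP2-KO (limma adjusted p = 0.00024) and of 1.06 ± 0.16 in APPsα-DM (limma adjusted p = 0.000757), or 2.29-fold and 2.08-fold higher. APLP2-KO cortex gave 6.62, 6.59 and 6.71 for Epha3, and APLP2-KO hippocampus 8.05, 7.74 and 7.79. APPsα-DM cortex gave 7.32, 6.68 and 7.26, and APPsα-DM hippocampus 7.91, 8.03 and 7.93. In cortex the APPsα-DM arrays 1 and 3 stood above the other 4 arrays, and hippocampus was above cortex throughout. The difference, hippocampus minus cortex, was 1.22 ± 0.14 (SE; 2.34-fold higher, limma adjusted p = 9.26e-05) in APLP2-KO and 0.87 ± 0.14 (1.83-fold, limma adjusted p = 0.00147) in APPsα-DM. Its 3 other probe sets, all dimmer, gave 0.42 to 0.97 in APLP2-KO and 0.095 to 0.94 in APPsα-DM, and 1 of them was called in both genotypes. Epha4, the receptor that accepts both ephrin classes, read 9.77, 9.83 and 9.84 in APLP2-KO cortex and 10.51, 10.50 and 10.73 in hippocampus, and 10.03, 9.53 and 9.91 and 10.50, 10.83 and 10.63 in APPsα-DM. Hippocampus was 1.70-fold higher in APLP2-KO (0.77 ± 0.12, limma adjusted p = 0.00106) and 1.78-fold higher in APPsα-DM (0.83 ± 0.12, limma adjusted p = 0.000703). Epha5 read 8.88, 8.90 and 8.96 against 9.57, 9.56 and 9.68 in APLP2-KO and 9.01, 8.83 and 9.15 against 9.54, 9.60 and 9.59 in APPsα-DM. That is a difference of 0.69 ± 0.080 in APLP2-KO (limma adjusted p = 8.14e-05) and of 0.57 ± 0.080 in APPsα-DM (limma adjusted p = 0.000429), or 1.62-fold and 1.49-fold higher. For both, no hippocampus array fell among the cortex arrays. Epha1, Epha2 and Epha8 had means at or under 6, and Epha10, which lacks kinase activity, differed by -0.18 and -0.19 without passing (limma adjusted p = 0.0876 and 0.0706). Epha3 and Epha6 lie on chromosome 16 with 4 protein-coding genes between them.

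Of the 4 EphB receptors measured, 2 were called lower in hippocampus in both genotypes and none higher. Ephb6, a receptor without kinase activity, differed most. Its signal was 9.69, 9.84 and 9.98 in APLP2-KO cortex against 8.49, 8.61 and 8.69 in APLP2-KO hippocampus. The APPsα-DM arrays gave 9.79, 9.67 and 9.74 in cortex and 8.48, 9.07 and 8.85 in hippocampus. APPsα-DM hippocampus 2 was the highest hippocampus array and still lay below all cortex arrays. The difference, hippocampus minus cortex, was -1.24 ± 0.13 (SE; 2.36-fold lower, limma adjusted p = 3.45e-05) in APLP2-KO and -0.93 ± 0.13 (1.91-fold, limma adjusted p = 0.000391) in APPsα-DM. APLP2-KO cortex gave 8.73, 8.54 and 8.63 for Ephb1, and APLP2-KO hippocampus 8.19, 8.02 and 8.00. APPsα-DM cortex gave 8.51, 8.71 and 8.60, and APPsα-DM hippocampus 8.01, 8.34 and 8.21. Hippocampus was 1.48-fold lower in APLP2-KO (-0.57 ± 0.095, limma adjusted p = 0.00147) and 1.34-fold lower in APPsα-DM (-0.42 ± 0.095, limma adjusted p = 0.0126). The tissues did not overlap for Ephb1, but its APPsα-DM call ended without APPsα-DM cortex 2 (0.0536) or hippocampus 1 (0.0519), and without the 2 cortex arrays high in choroid plexus markers (0.0758). Without the 5 arrays of both tissues it was -0.21 (limma adjusted p = 0.514). Ephb3 gave -0.38 and -0.31, past the threshold in APLP2-KO (limma adjusted p = 0.016) and just short of it in APPsα-DM (0.0503). Ephb4, a receptor of vascular cells, had a mean of 5.63 and differed by 0.054 and -0.33, with neither value past the test. Ephb2 was not analysed here.

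Among the A ephrins, Efna5 was called lower in hippocampus in both genotypes. Efna5 read 9.04, 9.12 and 8.93 in the 3 APLP2-KO cortex arrays and 7.65, 7.60 and 7.46 in APLP2-KO hippocampus. In APPsα-DM it read 9.12, 8.97 and 8.77 in cortex and 7.50, 7.82 and 7.71 in hippocampus. No hippocampus array came within 0.5 of a cortex array. Hippocampus was 2.75-fold lower in APLP2-KO (-1.46 ± 0.11, limma adjusted p = 2.01e-06) and 2.42-fold lower in APPsα-DM (-1.27 ± 0.11, limma adjusted p = 7.16e-06). Efna5 was thus lower where the 5 EphA receptors called in both genotypes were higher. A dimmer probe set of Efna5, with a mean of 4.80, differed by 0.022 and 0.030, so the result rests on the brighter one, and the mean of both gave -0.72 and -0.62. Efna1, Efna2, Efna3 and Efna4 had differences above 0 in both genotypes. Efna1 (0.25 and 0.40) and Efna3 (0.21 and 0.24), which adjoin each other on chromosome 3, passed in APPsα-DM alone (limma adjusted p = 0.0398 and 0.0459). Of the 3 B ephrins, Efnb3 was called higher and Efnb2 lower. Efnb3 read 9.28, 9.11 and 9.27 in the 3 APLP2-KO cortex arrays and 9.63, 9.67 and 9.58 in APLP2-KO hippocampus. In APPsα-DM it read 9.02, 9.41 and 9.32 in cortex and 9.57, 9.95 and 9.64 in hippocampus. That is a difference of 0.41 ± 0.11 in APLP2-KO (limma adjusted p = 0.0332) and of 0.47 ± 0.11 in APPsα-DM (limma adjusted p = 0.0182), or 1.33-fold and 1.38-fold higher. APLP2-KO cortex gave 9.12, 9.11 and 9.11 for Efnb2, and APLP2-KO hippocampus 8.81, 8.85 and 8.47. APPsα-DM cortex gave 9.15, 9.08 and 9.39, and APPsα-DM hippocampus 8.81, 8.73 and 8.74. Hippocampus was 1.32-fold lower in APLP2-KO (-0.40 ± 0.10, limma adjusted p = 0.0224) and 1.36-fold lower in APPsα-DM (-0.45 ± 0.10, limma adjusted p = 0.0148). Neither gene's tissues overlapped within a genotype, yet both calls were near the threshold. That of Efnb3 in APLP2-KO ended without any one of the 6 APLP2-KO arrays (limma adjusted p = 0.0599 to 0.122), and in APPsα-DM without APPsα-DM cortex 1 (0.0739) or hippocampus 2 (0.0655). That of Efnb2 ended in APLP2-KO without APLP2-KO cortex 1 (0.061), cortex 2 (0.063), cortex 3 (0.0599) or hippocampus 3 (0.0825), and in APPsα-DM without APPsα-DM cortex 3 (0.0592) or hippocampus 3 (0.054). Averaging the 4 probe sets of Efnb2 ended both calls (-0.23 and -0.31, limma adjusted p = 0.151 and 0.0535). Efnb1 differed by -0.077 and -0.20 without passing.

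Set side by side, several ligands and receptors of the classes they bind had opposite tissue differences. Sema3a was lower (-2.03 and -1.95 in APLP2-KO and APPsα-DM) where Nrp1 (1.77 and 1.61), Plxna1 (0.50 and 0.55) and Plxna4 (0.43 and 0.47) were higher. Sema3e was higher (1.01 and 0.78) where Plxnd1 was lower (-1.44 and -1.13). Efna5 was lower (-1.46 and -1.27) where Epha3 (1.22 and 0.87), Epha4 (0.77 and 0.83), Epha5 (0.69 and 0.57), Epha6 (1.93 and 1.76) and Epha7 (1.20 and 1.06) were higher. Efnb3 was higher (0.41 and 0.47) where the EphB receptors Ephb1 (-0.57 and -0.42) and Ephb6 (-1.24 and -0.93) were lower. Ephb3 also lay below 0 (-0.38 and -0.31) and passed in APLP2-KO alone. Other pairs did not follow this pattern: Efnb2 was lower (-0.40 and -0.45) as were Ephb1 and Ephb6, and Sema3f, the main ligand of neuropilin 2, differed by -0.079 and -0.0045 while Nrp2 was higher by 1.66 and 1.52. Nor did Efna1 (0.25 and 0.40) and Efna3 (0.21 and 0.24), which lay above 0 like the EphA receptors named here and passed in APPsα-DM alone. Efnb3 and Epha4, which accepts both ephrin classes, were both higher. The A plexin Plxna2 lay below 0 like Sema3a (-0.32 and -0.22). It passed in APLP2-KO alone by the probe set of highest mean, and another probe set was called lower in both genotypes (-0.79 and -0.59). Sema6d (0.27 and 0.26, not past the test) lay on the same side as its receptor Plxna1. These pairs were picked with the values known and carry no test as pairs.

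For 7 members the test was passed in a single genotype, and the difference between genotypes was tested for each. Epha8, Ephb3, Plxna2 and Sema7a passed in APLP2-KO, with differences of -0.32, -0.38, -0.32 and -0.72 there and -0.29, -0.31, -0.22 and -0.43 in APPsα-DM. Efna1, Efna3 and Plxnb2 passed in APPsα-DM, with 0.40, 0.24 and 0.41 there and 0.25, 0.21 and 0.17 in APLP2-KO. The difference between the genotypes' tissue effects lay between 0.027 and 0.29 and had a limma adjusted p of 1 for all 7, so no genotype difference in tissue effect was detected for any of them. Except for that of Sema7a in APLP2-KO (limma adjusted p = 0.00252), these calls were near the threshold, and each ended without some single array. In APLP2-KO, Epha8 ended without APLP2-KO cortex 2 (0.165), cortex 3 (0.0649), hippocampus 1 (0.102), hippocampus 2 (0.113), hippocampus 3 (0.0889), APPsα-DM cortex 1 (0.0582) or hippocampus 1 (0.0551), and also with the replicate block (0.0902), Ephb3 without APLP2-KO cortex 2 (0.0657) or hippocampus 3 (0.0717), and Plxna2 without APLP2-KO cortex 1 (0.0528), hippocampus 1 (0.0595) or hippocampus 2 (0.0569). In APPsα-DM, Efna1 ended without APLP2-KO hippocampus 2 (0.058), APPsα-DM cortex 1 (0.131), cortex 3 (0.123), hippocampus 2 (0.098) or hippocampus 3 (0.136), and Plxnb2 without APPsα-DM cortex 1 (0.0978), cortex 3 (0.084), hippocampus 1 (0.0998) or hippocampus 3 (0.0689). Efna3 ended without any of 10 arrays, at 0.0532 to 0.151, the values in brackets and here being limma adjusted p.

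**Figure D3:**
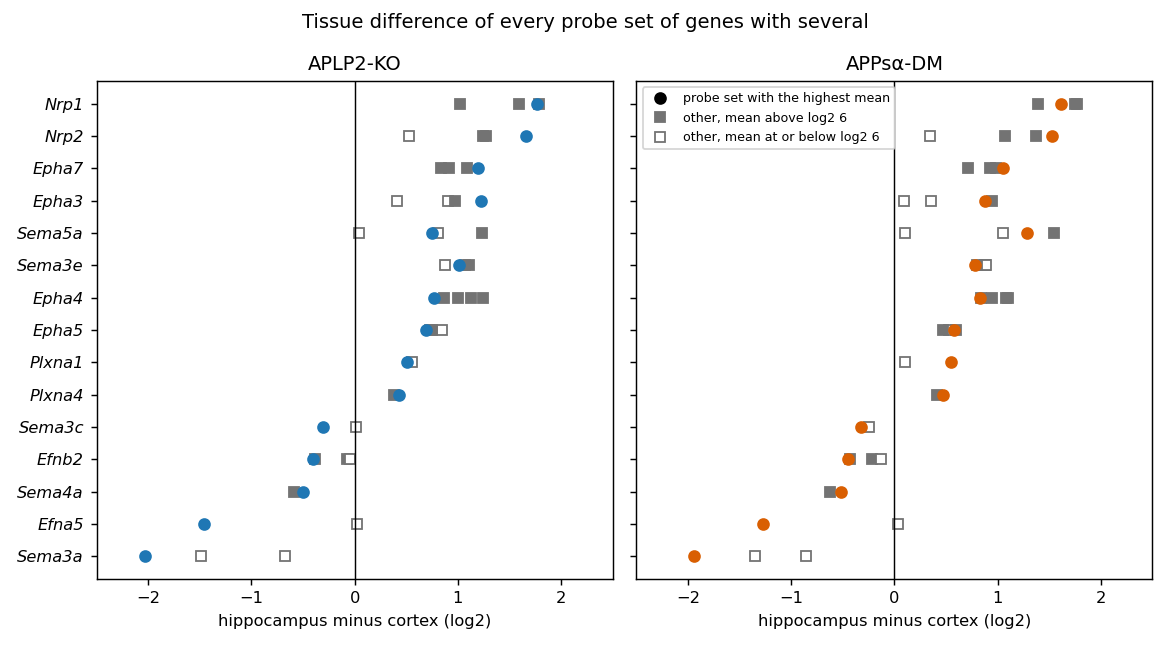
Difference in log2 signal, hippocampus minus cortex, for every probe set of the 15 genes that were called in both genotypes and have more than 1, with APLP2-KO on the left and APPsα-DM on the right. Coloured circles are the probe sets described in the text, grey squares the others, and open squares those with a mean at or below 6; most squares lie on the side of their circle, while the open square of Efna5 lies near 0.

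Other probe sets of the same genes bear on these calls, since each measures the same RNA at another place. More than 1 probe set was available for 36 members, with 71 further probe sets. For 15 of the 20 members called in both genotypes there were 35 others: 33 had the same sign in both comparisons, 27 were called in the same direction in both and none was called in the opposite direction. Among all probe sets, 8.31% were called in the same direction in both. These genes were chosen by their probe set of highest mean on the same arrays, so the agreement is not independent support. Single probe sets changed the picture of some other members. The second probe set of Sema7a differed by -1.62 and -1.41 (limma adjusted p = 0.000102 and 0.000378). Sema7a was thus lower in both genotypes by that probe set, whose mean was at or under 6, against 10.1 for the brighter one. One other probe set of Plxna2 gave -0.79 and -0.59 (limma adjusted p = 0.000197 and 0.00204). Both further probe sets of Sema3f, with means of 5.92 and 5.63, were called lower in both genotypes, at -0.27 and -0.29 and at -0.43 and -0.41, while the brightest gave -0.079 and -0.0045. One of Sema6d, with a mean of 6.66, was called higher at 0.41 and 0.39. The values of Plxna2, Sema3f and Sema6d were chosen after they were seen.

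The wider guidance and signalling genes were read from lists, and the genes named from them here were picked with their values known. Of 25 other guidance ligands and receptors, 8 were called higher and 3 lower in hippocampus in both genotypes. Slit1, a repellent ligand of Robo receptors, was higher by 1.80 and 1.77 (limma adjusted p = 3.23e-07 and 4.84e-07), and Ntng1, a membrane-anchored netrin, by 1.23 and 1.29. Dcc (0.67 and 0.59) and Unc5c (0.58 and 0.66), both netrin receptors, and Robo1 (0.66 and 0.43) were higher too. The adhesion proteins Flrt1 (-0.65 and -0.61) and Flrt2 (-0.59 and -0.56) and the netrin Ntn4 (-0.60 and -0.50) were lower. Of 30 genes that act below plexins and neuropilins, 4 were called higher and 4 lower. Rnd1, a small GTPase that binds plexins, was lower, with differences of -1.39 and -1.13 (limma adjusted p = 1.78e-05 and 0.000108), and Dpysl3, a collapsin response mediator, was higher by 0.50 and 0.51. Of the 30 genes measured that act below Eph receptors and ephrins, 5 were called higher and 6 lower. Ngef, the exchange factor ephexin that EphA4 activates, was lower, with differences of -1.64 and -1.66 (limma adjusted p = 2.1e-07 and 2.35e-07), although Epha4 itself was higher by 0.77 and 0.83. Arhgef15, a related exchange factor (-1.10 and -0.77), and the cofilin kinase Limk1 (-1.02 and -0.77) were lower as well, and Tiam1, a Rac exchange factor, was higher by 0.51 and 0.53. In both genotypes together 44%, 26.7% and 36.7% of the 3 lists were called, against 37.7% of the guidance members and 11.4% of all genes.

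The 2 genotypes were compared within each tissue, APPsα-DM minus APLP2-KO, which asks whether the guidance genes respond to loss of all APP parts but APPsα in mice without APLP2. No guidance gene passed the limma test after adjustment in cortex or in hippocampus, with an adjusted p of 1 for each member in both tissues. The background was 0.0110% of genes and 0.00888% of probe sets in each. At an unadjusted p under 0.05 there were 2 members in cortex (3.77%, background 4.57%) and 2 in hippocampus (3.77%, background 4.02%). Member differences ran from -0.21 to 0.45 in cortex and from -0.24 to 0.42 in hippocampus. For 48 of 53 members in each tissue the 95% interval lay within 0.5 of 0 on both sides. In each tissue 4 members had no overlap between the arrays of APPsα-DM and those of APLP2-KO (7.5%), against 9.82% and 10.5% of all genes.

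**Figure D4:**
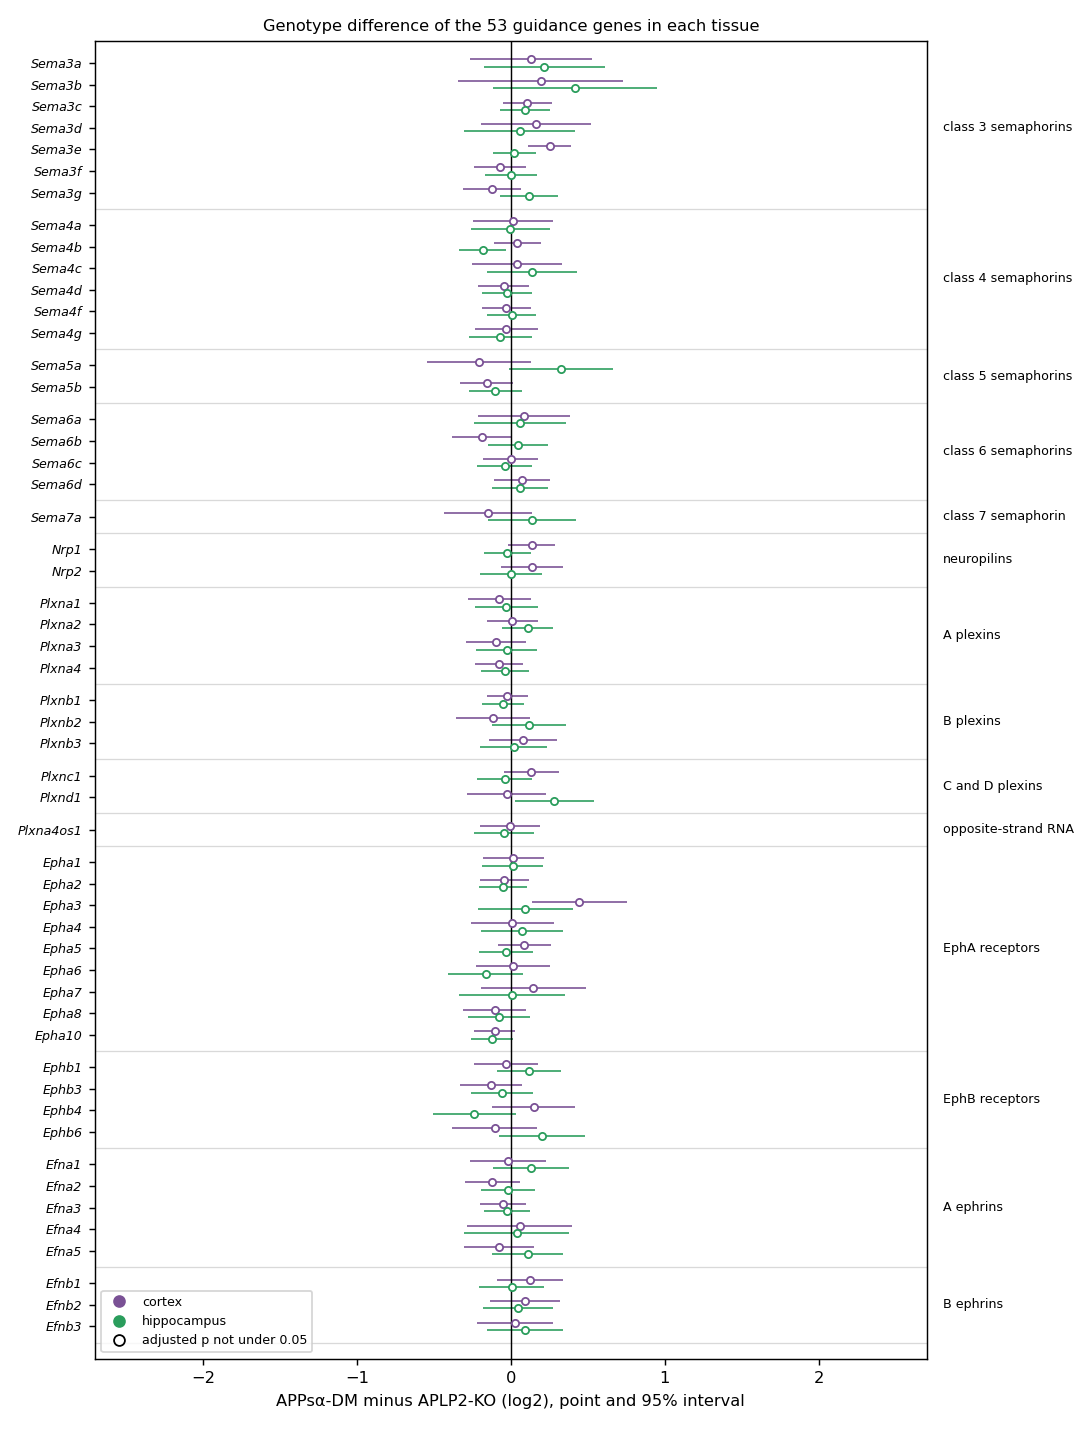
Difference in log2 signal, APPsα-DM minus APLP2-KO, of each of the 53 guidance genes in cortex (purple) and hippocampus (green), with 95% intervals from limma (3 arrays a group); open points have an adjusted p not under 0.05. All points are open and lie between -0.24 and 0.45, on the same horizontal scale as the tissue differences.

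In cortex the members with the smallest unadjusted p were Sema3e, Epha3, Sema6b and Sema5b. Sema3e read 8.31, 8.24 and 8.22 in APLP2-KO cortex and 8.53, 8.49 and 8.52 in APPsα-DM cortex, without overlap. The difference was 0.25 ± 0.065 (limma unadjusted p = 0.00198, adjusted p = 1). Its 3 other probe sets gave 0.16, -0.065 and 0.19. Epha3 read 6.62, 6.59 and 6.71 against 7.32, 6.68 and 7.26, and APPsα-DM cortex 2 lay among the APLP2-KO arrays. The difference was 0.45 ± 0.14 (limma unadjusted p = 0.00857, adjusted p = 1), and the other 3 probe sets gave 0.38, 0.51 and 0.38. It was 0.65 without APPsα-DM cortex 2 (limma adjusted p = 0.172) and 0.33 without APPsα-DM cortex 1. APPsα-DM cortex 2 is one of the cortex arrays high in choroid plexus markers. Sema6b (-0.19) and Sema5b (-0.16) followed. In hippocampus Sema4b read 6.58, 6.60 and 6.64 in APLP2-KO and 6.38, 6.38 and 6.52 in APPsα-DM (-0.18 ± 0.070, limma unadjusted p = 0.0221). Plxnd1 read 7.20, 7.33 and 6.93 against 7.47, 7.43 and 7.40 (0.28 ± 0.12, limma unadjusted p = 0.0335), without overlap. Endothelial and pericyte markers also lay higher in this comparison: all 13 were above 0 with a median of 0.19, 7 had an unadjusted p under 0.05 and 5 did not overlap, and none passed the limma test after adjustment. All 5 smooth muscle markers also lay above 0, with a median of 0.27. Their part in the Plxnd1 value was not tested. Sema5a (0.32) and Epha10 (-0.12) came next, above an unadjusted p of 0.05.

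Whether the genotype difference varied between tissues was tested as an interaction, hippocampal minus cortical difference. No member passed after adjustment (limma adjusted p of 1 for each), nor did any of all 45037 probe sets (background 0%). At an unadjusted p under 0.05 there were 4 members (7.55%), against a background of 3.41%. These were Sema3e (-0.23 ± 0.091, limma unadjusted p = 0.0267), Sema5a (0.53 ± 0.22, 0.0312), Sema4b (-0.22 ± 0.099, 0.0411) and Ephb4 (-0.39 ± 0.17, 0.0477). For Sema5a the tissue difference was 0.75 in APLP2-KO and 1.28 in APPsα-DM, and for Sema3e 1.01 and 0.78.

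App lies on chromosome 16, as do 4 members: Epha3 with 30 protein-coding genes between it and App, Epha6 with 35, Sema5b with 211 and Ephb3 with 321. Their genotype differences were 0.45 in cortex and 0.094 in hippocampus for Epha3, 0.013 and -0.16 for Epha6, -0.16 and -0.10 for Sema5b, and -0.13 and -0.060 for Ephb3. None passed the limma test (adjusted p of 1 in each comparison).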

How the data were processed

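Biotin-labelled RNA from 12 tissue pieces was measured on Affymetrix arrays. The deposited values are log2 signals per probe set that the authors made with RMA (affy), per the submitters' processing notes, and no version is given in the sources used here. The RMA method normalizes arrays to one another, so a shift shared by all genes would not be seen. The values span 1.80 to 14.36, with array medians of 5.86 to 5.91. Of 45101 probe sets, 64 controls were left out. Of the other 45037, 34945 carry 1 gene symbol in the platform annotation, 932 several and 9160 none, and no gene was named from the latter 2 kinds. All 53 members matched the RefSeq gene table of GRCm38.p6.

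Group means were fitted with lmFit and eBayes in limma 3.58.1 (R 4.3.3) over all 12 arrays (8 residual and 4.25 prior degrees of freedom), and p-values were adjusted by Benjamini-Hochberg over all 45037 probe sets, with a threshold of 0.05. The fit was tested on simulated data with known changes. Precision is limited by how few arrays there are, and the median standard error of a tissue difference was 0.0931 for the members and 0.0938 for all probe sets. A gene is represented by its probe set with the highest mean, and signals of different probe sets were not ranked against each other. Interval bounds are at 95%. The members, lists and promoters were chosen with earlier results of these data known.

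A fixed rule named the members called in both tissue comparisons without overlap of arrays. It also took the 4 of smallest p in each genotype comparison and in the interaction, and members on chromosome 16. Members called in a single genotype were taken too, and any with probe sets called in opposite directions, of which there were 0. Some other members and genes of the wider lists were given outside this rule, with their values known. Members with the highest and lowest means were Epha4 (10.22) and Plxna4os1 (3.91).

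Same-numbered cortex and hippocampus arrays were checked for pairing, since the labels do not say that a number marks one mouse. Deviations from the group means correlated at 0.109, 0.131 and 0.155 in APLP2-KO and at 0.079, 0.019 and 0.037 in APPsα-DM. Different-numbered arrays gave -0.14 to 0.023 in APLP2-KO and -0.065 to 0.036 in APPsα-DM. Same-numbered arrays of the 2 genotypes come from different mice, yet those of hippocampus correlated at 0.118, 0.029 and 0.206. Those of cortex gave -0.08, -0.255 and -0.126. These correlations therefore cannot show, in either genotype, whether a number marks one mouse. The main fit used no replicate block, so its p-values treat the arrays as unpaired in both genotypes. A replicate block that paired same-numbered arrays was run as an alternative, in both genotypes. Between genotypes a shared number cannot mark one mouse, and the labels do not say what it stands for. Alternatives covered the filter on dim probe sets, the scaling, the choice of probe set, the prior, the threshold, the replicate block and single arrays.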

Additional observations from a re-analysis of the deposited data

How the results depend on the processing

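No named member changed direction in a called value under any alternative, and the genotype and interaction counts stayed at 0 members under each. The tissue count was 24 members in APLP2-KO and 23 in APPsα-DM. The share of all genes called was counted only in the main fit with its threshold of 0.05. The alternatives below therefore show only how the member counts moved. With probe sets above 6 alone the tissue count was 31 and 28 of 44 members. It was 27 and 26 with an intensity trend, 26 and 22 after quantile normalization and 24 and 23 with array medians subtracted. The mean of probe sets gave 23 and 24, and the 6 arrays of the genotype gave 24 and 19. With each other probe set taken by itself, 26 of 71 were called higher and 9 lower in APLP2-KO (5.62% and 6.98% of all probe sets), and 24 higher and 8 lower in APPsα-DM (5.21% and 5.42%). At a threshold of 0.01, 17 members were called in APLP2-KO (11 higher, 6 lower) and 15 in APPsα-DM (11 higher, 4 lower). With a difference of at least 0.5 there were 17 (10 higher, 7 lower) and 15 (10 higher, 5 lower). Leaving out single arrays gave 20 to 25 members in APLP2-KO (11 to 13 higher, 9 to 12 lower) and 18 to 24 in APPsα-DM (11 to 15 higher, 6 to 11 lower). Without the 2 cortex arrays high in choroid plexus markers, an alternative chosen after seeing the data, the counts were 21 and 19. Without the 5 arrays of both tissues with a marker mean above 7, also chosen after seeing the data, they were 18 (7 lower) and 16 (4 lower), with 7 arrays left. Of the 20 members called in both genotypes, 13 kept both calls at the threshold of 0.05 in the probe set of highest mean and in the mean of probe sets, under every other fit and with every array or set of arrays left out, 9 higher (Epha6, Nrp1, Nrp2, Epha7, Epha3, Sema3e, Epha4, Epha5 and Plxna4) and 4 lower (Sema3a, Efna5, Plxnd1 and Ephb6). Of these, Plxna4 (0.43 and 0.47) was not past the minimum difference of 0.5. Single dimmer probe sets of Efna5 and Epha3 were not called in both genotypes. Leaving out the 5 arrays ended both calls of Sema3c (limma adjusted p = 0.141 and 0.266), Sema4a (0.0574 and 0.0879) and Efnb2 (0.172 and 0.0698), that of Efnb3 in APLP2-KO (0.0737) and those of Sema5a and Ephb1 in 1 genotype each. The cause of the lost calls was not tested.

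With the replicate block of genotype and number, 26 members were called in APLP2-KO (14 higher, 12 lower) and 21 in APPsα-DM (13 higher, 8 lower), and 0 in the interaction. The replicate block gave 0 members in the genotype comparisons. Among named members it ended the calls of Epha8 in APLP2-KO (limma adjusted p = 0.0902) and of Efna3 and Plxnb2 in APPsα-DM (0.0702 and 0.052). Signals near or below the array median, as for the 9 members with a mean at or under 6, limit what could be detected.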
